A study of Mus musculus with 16 samples.

Results

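The integrated stress response and the unfolded protein response were followed through 10 genes in mouse liver: the transcription factors Atf4, Atf5, Atf3 and Ddit3, the pseudokinase Trib3, asparagine synthetase (Asns), sestrin 2 (Sesn2), the endoplasmic reticulum (ER) chaperone Hspa5, the transcription factor Xbp1 and the ER-associated degradation factor Herpud1. The genes were chosen by name, as the transcript probes on the array that carry one of these 10 symbols. This rule uses no measured value, but the list of symbols was drawn up with earlier results of these data known. They were covered by 12 of the 41174 transcript probes and made up 10 of the 18505 genes that passed the filter on dim probes. All 12 probes were well above background on all 16 arrays and no spot of them was saturated.

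The integrated stress response starts from kinases that phosphorylate the translation factor eIF2alpha when amino acids are scarce, when unfolded proteins collect in the ER, when haem is short or when double-stranded RNA appears. Protein synthesis then slows while the mRNA of Atf4 is translated more, and ATF4 protein switches on genes for amino acid synthesis and uptake, together with Ddit3 (CHOP), Atf3 and Trib3. The unfolded protein response shares the ER-resident kinase PERK with it and adds a pair of further sensors, IRE1, which splices Xbp1 mRNA, and ATF6, which is cut to release a transcription factor, and these raise ER chaperones and degradation factors. Hepatocytes secrete most plasma proteins and carry a large ER. In liver, glucocorticoids acting through the glucocorticoid receptor (GR) also raise enzymes that break down amino acids. The array measures mRNA only, so translation of Atf4 and phosphorylation of eIF2alpha were not measured, and the single Xbp1 probe gives 1 level for the transcript with no separate value for its spliced form.

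Liver RNA of male C57BL/6 mice, aged 3 months, was hybridised to 16 Agilent 1-colour whole mouse genome arrays, 4 in each of 4 groups. The groups were wild-type mice without treatment, wild-type mice given dexamethasone (a synthetic glucocorticoid), GR knockout mice without treatment and GR knockout mice given dexamethasone. The treatment protocol describes the knockout as one of liver and the controls as given vehicle, while the sample descriptions say no treatment and the titles of all knockout samples carry the letters PBS. The Cre driver, the deleted exons, and the dose, route and duration of dexamethasone are not stated in the labels. Nothing in the labels states that each replicate was a separate mouse, and p-values then measure only the spread between these samples. Nr3c1, the gene of the receptor, lay between 2.13 and 2.52 in untreated wild type, 1.93 and 2.26 in treated wild type, 0.24 and 0.56 in untreated knockout and -0.10 and 0.44 in treated knockout, on the log2 scale defined next, so each array matched its genotype label. It does not check the treatment label, since treated and untreated arrays overlapped within each genotype. Whether its probe lies inside the deleted part is not known.

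Levels here are log2 signals relative to the 75th percentile of the same array, so a difference of 1 between groups means a 2-fold difference. Levels of different genes come from different probes and are not set against each other. The 75th percentile of the signal was 523.1 to 692 on 14 arrays and lower on 2, at 401.3 (array 4 of untreated wild type) and 308.7 (array 1 of untreated knockout). With 4 arrays in each group, precision is limited by their number. Leaving out both arrays of low signal changed none of the calls on the 10 genes. Every group occupied a slide of its own, which means that effects of slide and of group cannot be told apart here. In bulk liver, a change in the number of cells of a type and a change in RNA per cell also cannot be told apart. All 8 hepatocyte markers were detected. Their summed level, led by Alb and the other plasma protein genes, was 10.70 to 11.47 over all arrays.

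Of the 10 genes, Herpud1 rose with dexamethasone in wild type, and Herpud1 and Ddit3 differed between knockout and wild type under dexamethasone, Herpud1 being lower and Ddit3 higher in the knockout. No other gene of the 10 passed the threshold in any of the 5 comparisons, which was an adjusted p under 0.05 (limma moderated test with Benjamini-Hochberg adjustment over all 18505 genes). With dexamethasone in wild type, 1 of 10 was called, against 12% of all genes, and 2 had an unadjusted p under 0.05, against 26.4%. With dexamethasone in the knockout 0 of 10 were called, against 3.58% of all genes, and 3 had an unadjusted p under 0.05, against 16.7% of all genes. For the difference of those responses (knockout response minus wild-type response) 0 of 10 were called, against 4.61% of all genes, with 1 at an unadjusted p under 0.05, against 16.6%. Between untreated knockout and untreated wild type 0 of 10 were called, against 2.82%, with 1 at an unadjusted p under 0.05, against 19.4%. Between treated knockout and treated wild type 2 of 10 were called, against 22.3%, and the same 2 had an unadjusted p under 0.05, against 35%. In every comparison the share of the 10 genes called was below or near that of all genes. The median log2 difference of the 10 was 0.21 with dexamethasone in wild type and 0.40 in the knockout, where the medians of all genes were -0.03 and 0. Between knockout and wild type it was -0.01 without and 0.10 with dexamethasone, where the medians of all genes were 0.05 and 0.09. The confidence intervals of most of the 50 differences included 0, and their SEs ran from 0.18 to 1.42 log2 units, so a difference that was not called is not shown to be absent.

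**Figure D1:**
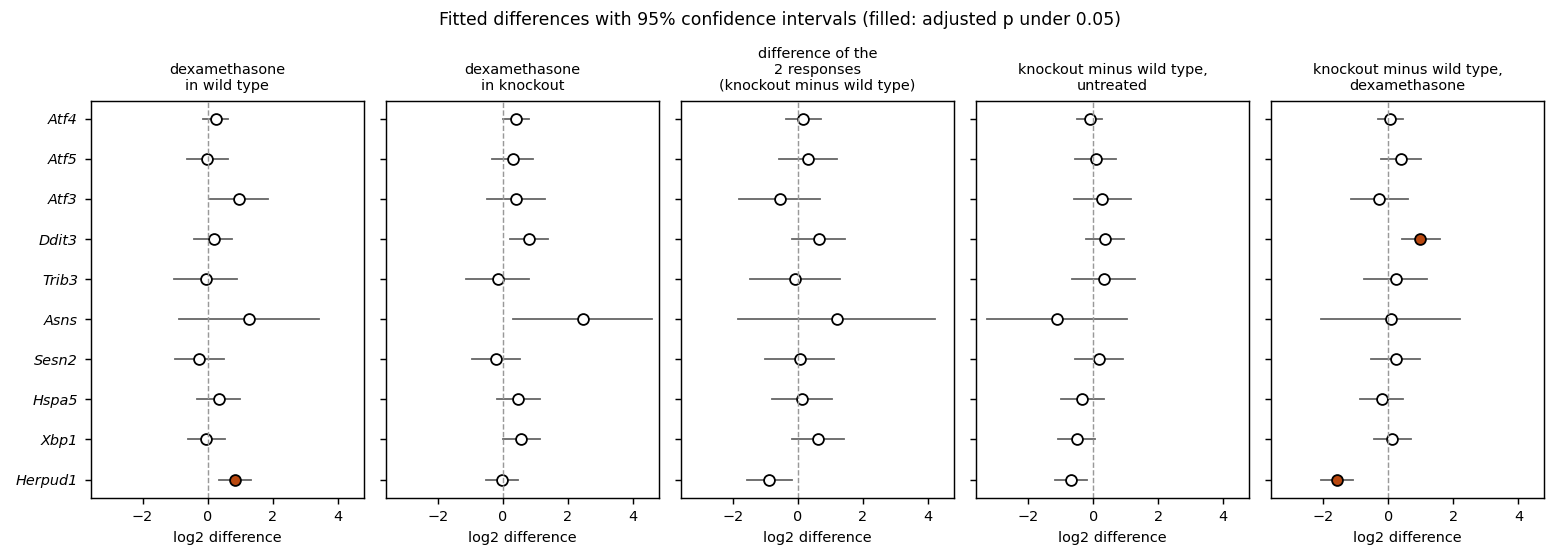
Fitted log2 differences (x axis) of the 10 genes (y axis) in the 5 comparisons, with 95% confidence intervals from limma over 16 arrays; filled points have an adjusted p under 0.05. Filled points are Herpud1 with dexamethasone in wild type (0.85), and Ddit3 (0.99) and Herpud1 (-1.57) in treated knockout against treated wild type.

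Herpud1 encodes a membrane protein of the ER that takes part in ER-associated degradation, in which misfolded proteins are drawn out of the ER and handed to the proteasome. Its probe A_51_P434101 lies on mouse chromosome 8 at chr8:92984261-92984320 (mm7 build, plus strand). In untreated wild type its level was 6.50, 6.67, 6.86 and 6.35, and in treated wild type 7.80, 7.15, 7.43 and 7.43. Every treated wild-type array was above every untreated one, as was so in either direction for 22.1% of all genes. The rise was 0.85 on the log2 scale (SE 0.23, 95% confidence interval 0.36 to 1.34, n = 4 per group, 1.81-fold, adjusted p = 0.025). In untreated knockout the levels were 5.35, 6.11, 6.55 and 5.64, and in treated knockout 5.64, 5.75, 6.00 and 6.14. The knockout groups overlapped throughout, and dexamethasone gave a difference of -0.03 there (SE 0.23, interval -0.52 to 0.46, adjusted p = 0.97). The difference between both responses was -0.88 (SE 0.32, interval -1.58 to -0.19) with an unadjusted p of 0.016 in limma, and it did not pass the threshold after adjustment (adjusted p = 0.16).

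Under dexamethasone, Herpud1 was 2.96-fold lower in the knockout than in wild type (log2 -1.57, SE 0.23, interval -2.06 to -1.08, adjusted p = 4e-04), and the highest treated knockout array (6.14) lay below the lowest treated wild-type array (7.15), a lack of overlap seen in 31.5% of all genes. Without treatment the knockout mean was lower by a log2 difference of -0.68 (SE 0.23, adjusted p = 0.12), and knockout array 3 (6.55) lay within the wild-type range. From highest to lowest mean, the order was treated wild type at 7.45 ± 0.27 (SD, n = 4), untreated wild type at 6.60 ± 0.22, untreated knockout at 5.91 ± 0.53 and treated knockout at 5.88 ± 0.23. Of the neighbours in that order, treated and untreated wild type differed past the threshold, and the other neighbours did not. The call on the rise in wild type depended on single arrays. It was lost without untreated wild-type array 1 (0.82, adjusted p = 0.064), 2 (0.88, adjusted p = 0.057) or 4 (0.77, adjusted p = 0.061), and without treated wild-type array 1 (0.74, adjusted p = 0.087), 3 (0.86, adjusted p = 0.053) or 4 (0.86, adjusted p = 0.050). It was lost with normexp background correction as well (0.87, adjusted p = 0.055). The lower level in treated knockout kept its call in each of 29 alternative settings, at -1.67 to -1.45. Untreated knockout array 1, which also had the lowest overall signal, was the lowest for Herpud1. Without it the difference of the responses was -1.07 and passed the threshold (adjusted p = 0.038), and without untreated knockout array 3 the untreated knockout was lower than wild type past the threshold (-0.90, adjusted p = 0.035). Of all genes, 8.09% and 3.46% were called in these settings, against 4.61% and 2.82% in the main fit.

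**Figure D2:**
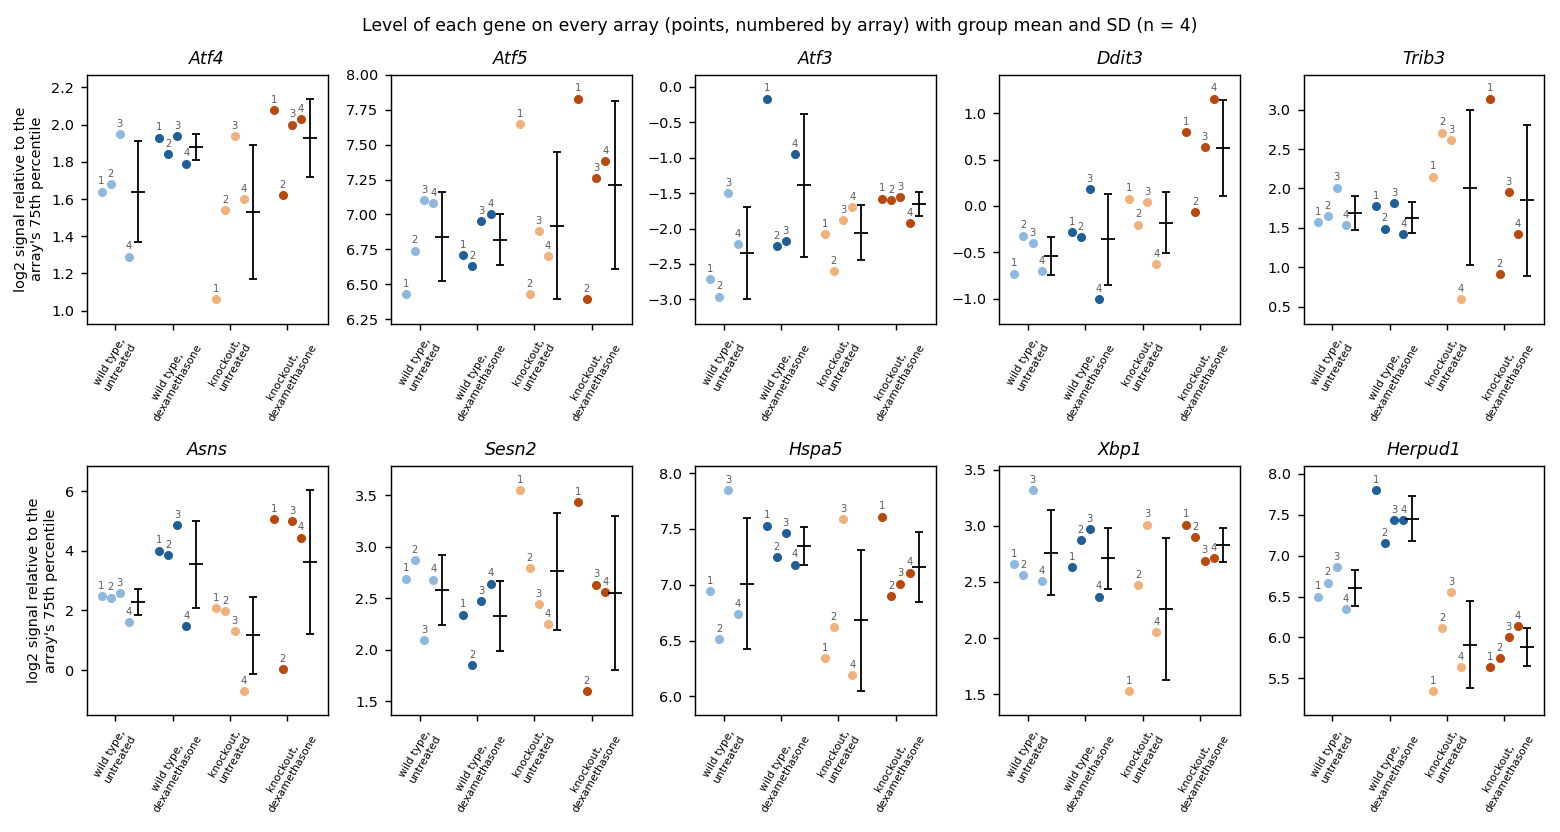
Level of each of the 10 genes on each array (points, numbered by array within its group; y axis, log2 signal relative to the array's 75th percentile, with its own scale in each panel) in the 4 groups (x axis), with the group mean and SD (n = 4). Herpud1 is highest in treated wild type (7.15 to 7.80), Asns is at 0.03 on treated knockout array 2 against 4.44 to 5.05 on the other treated knockout arrays, and for the other genes the groups overlap.

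The promoters of Herpud1 and Hspa5 are printed because both are classical targets of the unfolded protein response and only Herpud1 of the pair was called here, and that of Asns because it carries the element through which ATF4 is known to act. The sequences are the 250 bases before the RefSeq start site on GRCm38.p6, a newer build than that of the probe positions, read 5′ to 3′ on the gene's strand at chr8:94386179-94386428 (plus) for Herpud1, chr2:34771840-34772089 (plus) for Hspa5 and chr6:7693210-7693459 (minus) for Asns, and capitals mark the motif matches named after them.
Herpud1: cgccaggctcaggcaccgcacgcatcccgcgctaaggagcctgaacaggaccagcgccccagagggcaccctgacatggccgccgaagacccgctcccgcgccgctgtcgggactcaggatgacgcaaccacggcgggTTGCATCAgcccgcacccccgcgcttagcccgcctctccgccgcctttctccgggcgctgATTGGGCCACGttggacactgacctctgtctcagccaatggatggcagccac
Hspa5: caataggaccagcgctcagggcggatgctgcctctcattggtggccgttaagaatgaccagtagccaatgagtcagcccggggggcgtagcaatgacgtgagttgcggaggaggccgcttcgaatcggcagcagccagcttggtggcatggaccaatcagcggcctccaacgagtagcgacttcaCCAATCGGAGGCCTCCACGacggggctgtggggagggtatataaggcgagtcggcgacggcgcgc
Asns: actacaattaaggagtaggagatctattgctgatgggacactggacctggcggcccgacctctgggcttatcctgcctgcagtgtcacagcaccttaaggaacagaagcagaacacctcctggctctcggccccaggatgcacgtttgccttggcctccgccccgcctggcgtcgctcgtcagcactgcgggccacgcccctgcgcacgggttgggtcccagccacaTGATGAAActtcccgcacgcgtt
Exact matches were counted on both strands in windows of 250 bases before to 50 bases after the start, in 32851 RefSeq promoters, and all 10 genes were matched by symbol to 11 promoters. The ER stress response element, searched as CCAAT and CCACG with 9 bases of any kind between them, was found in Hspa5 alone of the 10, with its first base at -65 from the start site, and in 0.12% of all promoters. The related element ERSE-II, searched as ATTGG and CCACG with 1 base of any kind between them, was found in Herpud1 alone of the 10, with its first base at -52, and in 0.04% of all promoters. The C/EBP-ATF composite element, searched as TGATGNAA, was found on the gene's own strand in Asns (at -23) and on the opposite strand in Atf3 (at -110), Herpud1 (at -112) and Trib3 (from position 15 after the start), and in 3.97% of all promoters. The unfolded protein response element TGACGTGG (0.68% of all promoters), the cyclic AMP response element TGACGTCA (1.79%) and the glucocorticoid response element, searched as GNACA and TGTNC with 3 bases of any kind between them (0.47%), had no exact match in the windows of the 10 genes. ERSE-II was added to the search after the promoter of Herpud1 had been viewed. A match describes the letters of the window and does not show that a factor binds there.

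Hspa5 (BiP) is the main chaperone of the ER lumen and keeps the stress sensors inactive while it is bound to them. Its level was 6.94, 6.51, 7.85 and 6.74 in untreated wild type, 7.53, 7.25, 7.46 and 7.18 in treated wild type, 6.34, 6.62, 7.59 and 6.19 in untreated knockout, and 7.61, 6.90, 7.01 and 7.11 in treated knockout. All groups overlapped, and array 3 was the highest of each untreated group. Dexamethasone gave a log2 difference of 0.34 in wild type (SE 0.31, interval -0.32 to 1.00, adjusted p = 0.52) and 0.47 in the knockout (SE 0.31, interval -0.19 to 1.13, adjusted p = 0.49). Neither difference passed the threshold, and both intervals reach a 2-fold rise. The difference between knockout and wild type was -0.33 without and -0.20 with dexamethasone (SE 0.31 each). Its probe lies at chr2:34783421-34783480 (mm7, plus strand).

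Xbp1 encodes the factor that IRE1 activates by splicing its mRNA, and it is needed for a full secretory apparatus. Its level was 2.66, 2.56, 3.32 and 2.51 in untreated wild type, 2.63, 2.87, 2.97 and 2.37 in treated wild type, 1.53, 2.47, 3.01 and 2.05 in untreated knockout, and 3.01, 2.90, 2.69 and 2.71 in treated knockout. Treated knockout was the tightest group (SD 0.15) and untreated knockout the widest (SD 0.63), with array 1 the lowest of all 16. Dexamethasone gave a difference of 0.56 in the knockout (SE 0.27, interval -0.01 to 1.13, adjusted p = 0.31) and -0.05 in wild type (SE 0.27, adjusted p = 0.93). The untreated knockout differed from untreated wild type by -0.50 (SE 0.27, adjusted p = 0.33). No difference of Xbp1 passed the threshold. Its probe lies at chr11:5476970-5477029 (mm7, plus strand).

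Atf4 encodes the central factor of the integrated stress response and is controlled largely by translation, so its mRNA need not follow the activity of its protein. Its level was 1.64, 1.68, 1.95 and 1.29 in untreated wild type, 1.93, 1.84, 1.94 and 1.79 in treated wild type, 1.06, 1.54, 1.94 and 1.60 in untreated knockout, and 2.08, 1.62, 2.00 and 2.03 in treated knockout. The lowest value of each untreated group came from the array of lowest overall signal, wild-type array 4 and knockout array 1; the part of signal in these values was not tested. Dexamethasone gave a difference of 0.40 in the knockout (SE 0.18, interval 0.01 to 0.79, adjusted p = 0.28) and 0.24 in wild type (SE 0.18, adjusted p = 0.44), and neither was called. Knockout and wild type differed by -0.11 without and 0.06 with dexamethasone (SE 0.18 each), and the difference of the responses was 0.16 (SE 0.26). Its probe lies at chr15:80341130-80341189 (mm7, plus strand).

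Atf5 encodes a factor related to ATF4 that is abundant in liver and is tied to the mitochondrial stress response. Its level was 6.43, 6.74, 7.10 and 7.08 in untreated wild type, 6.71, 6.63, 6.95 and 7.00 in treated wild type, 7.65, 6.43, 6.88 and 6.70 in untreated knockout, and 7.83, 6.39, 7.26 and 7.38 in treated knockout. The knockout groups held both the highest and the lowest arrays. No comparison of Atf5 was called, and the differences ran from -0.02 for dexamethasone in wild type (SE 0.29, adjusted p = 0.98) to 0.39 for treated knockout against treated wild type (SE 0.29, adjusted p = 0.37). Its probe lies at chr7:40986870-40986929 (mm7, minus strand).

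Ddit3 encodes CHOP, the factor that links long-lasting ER stress to cell death. Its level was -0.73, -0.32, -0.40 and -0.70 in untreated wild type, -0.28, -0.34, 0.18 and -1.01 in treated wild type, 0.08, -0.20, 0.04 and -0.63 in untreated knockout, and 0.80, -0.07, 0.64 and 1.16 in treated knockout. Arrays 1, 3 and 4 of treated knockout were above every array of the other groups, and array 2 lay among them. Under dexamethasone the knockout was 1.99-fold above wild type (log2 0.99, SE 0.27, interval 0.41 to 1.58, n = 4 per group, adjusted p = 0.018). The call was lost without treated wild-type array 4, the lowest of its group (0.78, adjusted p = 0.057), and without treated knockout array 4, the highest of its group (0.82, adjusted p = 0.053). With dexamethasone Ddit3 differed by 0.81 in the knockout (SE 0.27, interval 0.23 to 1.40, adjusted p = 0.12) and by 0.18 in wild type (SE 0.27, adjusted p = 0.73), and neither was called. The difference of those responses was 0.64 (SE 0.39, interval -0.19 to 1.46, adjusted p = 0.47). By mean level the order was treated knockout at 0.63 ± 0.52 (SD, n = 4), untreated knockout at -0.18 ± 0.33, treated wild type at -0.36 ± 0.49 and untreated wild type at -0.54 ± 0.21, and no neighbours in that order differed past the threshold where they were compared. The probe A_52_P533146 lies at chr10:126796858-126797161 (mm7, plus strand), a span longer than its 60 bases.

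Atf3 encodes an early stress-induced factor that acts beside ATF4 and CHOP. Its level was -2.71, -2.96, -1.50 and -2.22 in untreated wild type, -0.17, -2.25, -2.18 and -0.95 in treated wild type, -2.08, -2.60, -1.88 and -1.70 in untreated knockout, and -1.58, -1.60, -1.56 and -1.92 in treated knockout. Treated wild-type arrays 1 and 4 were the highest of all 16, and arrays 2 and 3 of that group lay within the untreated range. Dexamethasone gave a difference of 0.96 in wild type (SE 0.41, interval 0.08 to 1.85, adjusted p = 0.15) and 0.40 in the knockout (SE 0.41, adjusted p = 0.69), and neither was called. With weights on the arrays the wild-type difference was 1.22 and passed the threshold (adjusted p = 0.042). That setting called 27% of all genes, against 12% in the main fit. Its probe lies at chr1:190724174-190724233 (mm7, minus strand).

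Asns makes asparagine and is a classical target of ATF4 when amino acids run short. It had the widest spread of the 10 genes over the 16 arrays. Its level was 2.48, 2.43, 2.57 and 1.62 in untreated wild type and 4.01, 3.86, 4.85 and 1.48 in treated wild type. In the knockout it was 2.07, 1.99, 1.30 and -0.69 without treatment and 5.05, 0.03, 4.99 and 4.44 with dexamethasone. Treated arrays 1, 2 and 3 of wild type and 1, 3 and 4 of the knockout were above every untreated array, while treated wild-type array 4 and treated knockout array 2 lay within or below the untreated ranges. Dexamethasone gave a difference of 1.27 in wild type (SE 1.00, interval -0.87 to 3.41, adjusted p = 0.46) and 2.46 in the knockout (SE 1.00, interval 0.32 to 4.60, adjusted p = 0.22), and neither was called. Without treated knockout array 2 the knockout difference was 3.66 and passed the threshold (adjusted p = 0.020). Under dexamethasone, knockout and wild type differed by 0.08 (SE 1.00, interval -2.06 to 2.22), an interval that spans more than 4-fold in each direction. Its probe lies at chr6:7628080-7628139 (mm7, minus strand).

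Trib3 encodes a pseudokinase that CHOP and ATF4 induce and that restrains ATF4. Its brighter probe, A_51_P331570 at chr2:152078476-152078535 (mm7, minus strand), read 1.57, 1.65, 2.01 and 1.53 in untreated wild type and 1.78, 1.49, 1.81 and 1.42 in treated wild type. In the knockout it read 2.15, 2.71, 2.61 and 0.59 without treatment and 3.14, 0.91, 1.95 and 1.42 with dexamethasone. The wild-type arrays spanned 0.48 untreated and 0.39 treated, and the knockout arrays 2.12 and 2.23. None of the 5 differences was called, and the dexamethasone differences were -0.06 in wild type (SE 0.45, adjusted p = 0.95) and -0.16 in the knockout (SE 0.45, adjusted p = 0.90). The second probe, A_52_P600274 at chr2:152079146-152079205, gave 0.09 and 0.00 for the same comparisons (SE 0.42 each) and had its lowest values on the same knockout arrays, 4 untreated (-1.90) and 2 treated (-2.08).

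Sesn2 encodes sestrin 2, a leucine sensor that holds back mTORC1 and is raised by ATF4. Its brighter probe, A_52_P154710 at chr4:131870492-131870551 (mm7, minus strand), read 2.69, 2.87, 2.09 and 2.68 in untreated wild type, 2.34, 1.85, 2.47 and 2.64 in treated wild type, 3.55, 2.79, 2.44 and 2.25 in untreated knockout, and 3.43, 1.60, 2.63 and 2.56 in treated knockout. The groups overlapped, and dexamethasone gave -0.26 in wild type (SE 0.35, adjusted p = 0.69) and -0.20 in the knockout (SE 0.35, adjusted p = 0.83). The second probe, A_51_P161354 at chr4:131871376-131871435, was tighter. It read 1.10, 1.02, 0.89 and 1.31 in untreated wild type and 0.66, 0.64, 0.77 and 0.60 in treated wild type, with no overlap, as for 22.1% of all genes, and 1.66, 1.07, 1.11 and 0.91 in untreated against 0.98, 0.47, 0.76 and 0.90 in treated knockout. Its dexamethasone difference was -0.41 in both genotypes (SE 0.16 each), which was not called in limma over all probes (adjusted p = 0.12 in wild type and 0.23 in the knockout). Both probes had their lowest treated knockout value on array 2 and their highest on array 1.

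Single arrays stood out for several of the 10 genes at once. Treated knockout array 2 was the lowest of its group for 7 of the 10 genes (and for 20.3% of all genes), and treated knockout array 1 the highest for 7 of 10 (33.2% of all genes). Untreated wild-type array 3 was the highest of its group for 8 of 10 (21.3% of all genes), and treated wild-type array 4 the lowest for 6 of 10 (28.1% of all genes). For the 18 cytosolic aminoacyl-tRNA synthetases, enzymes that load tRNAs and are targets of ATF4, treated wild-type array 4 was the lowest of its group for 14 and treated wild-type array 3 the highest for 13 (32.8% of all genes), and treated knockout array 1 was the highest for 13. For the 24 ER chaperones and folding enzymes, untreated knockout array 4 was the lowest of its group for 19 (25.2% of all genes) and treated wild-type array 3 the highest for 17. These counts describe single arrays in groups of 4 and were not tested.

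**Figure D3:**
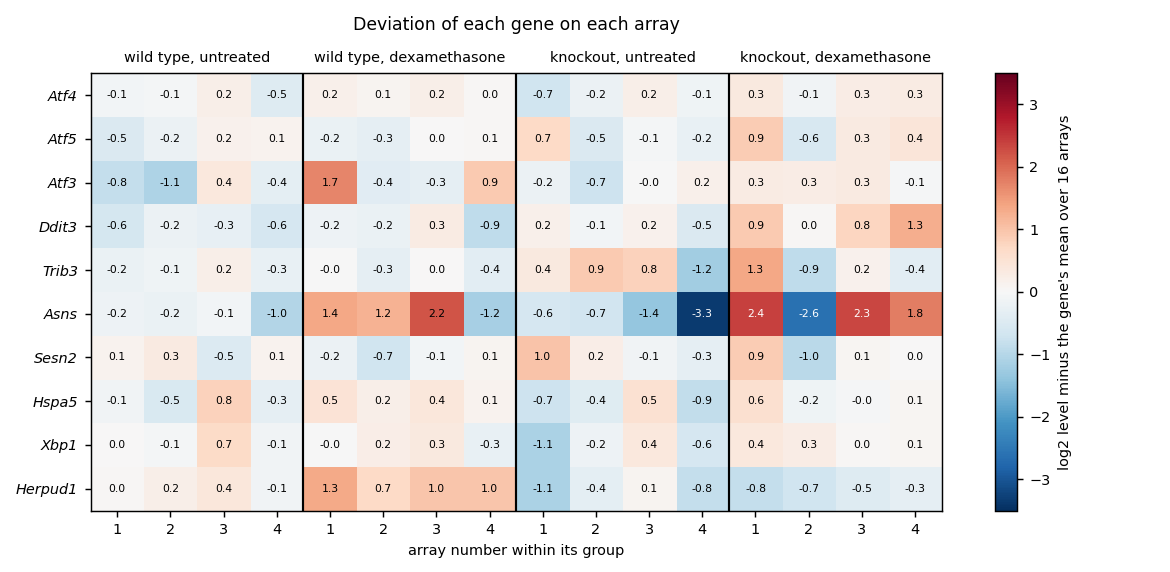
Deviation of each of the 10 genes (rows) on each of the 16 arrays (columns, numbered within group) from the gene's mean over all arrays, in log2 units printed in each cell and coloured from blue (lower) to red (higher). Asns has the widest range, from low on untreated knockout array 4 and treated knockout array 2 to high on the other treated knockout arrays, and Herpud1 is above its mean on all 4 treated wild-type arrays and below it on all 4 treated knockout arrays.

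Among all genes with a symbol and a value on every array, 15127 in number, the pattern of Herpud1 over the 16 arrays was matched most closely by Gin1 and Slc35g1, by the root mean square difference of log2 values after each gene was centred on its mean (0.17 and 0.23, where the SD of Herpud1 itself was 0.72). Gin1 averaged 0.55 in untreated and 1.62 in treated wild type, and -0.18 and -0.16 in untreated and treated knockout. Slc35g1, which encodes a member of a solute carrier family, averaged 2.44, 3.08, 1.58 and 1.47 in the same order. For Ddit3 the nearest were Olfr190 and Pak1 (0.34 and 0.35, where the SD of Ddit3 was 0.59), which is a looser match. Pak1, a signalling kinase, averaged -3.02, -3.37, -2.82 and -2.43 in the same order.

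The wider pathways were read through 8 lists of 155 other genes, of which 151 passed the filter. With dexamethasone in wild type, 11 of the 151 rose and 1 fell, against 5.18% and 6.81% of all genes. In the knockout 2 rose and 1 fell, against 1.18% and 2.4%. Untreated knockout had 1 gene above and 2 below wild type, against 2.06% and 0.757%, and treated knockout had 11 above and 16 below, against 14.1% and 8.2%. In the difference of the responses 1 was called, against 4.61%. The median difference of every list with dexamethasone in wild type was between 0.07 and 0.22, where that of all genes was -0.03. In the knockout the list medians with dexamethasone were between 0 and 0.3, where that of all genes was 0.

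Of 23 partners of ATF4 and stress regulators, 5 rose and 1 fell with dexamethasone in wild type (5.18% and 6.81% of all genes). Ddit4, an inhibitor of mTORC1 that glucocorticoids are known to induce, rose by 3.38 on the log2 scale (SE 0.49, 10.4-fold, adjusted p = 0.00089), and Cdkn1a, the cell cycle inhibitor p21, rose by 5.78 (SE 0.81, adjusted p = 0.00076). Stc2, a secreted glycoprotein gene, was called higher (1.83, SE 0.44, adjusted p = 0.014), but only 1 of the 4 untreated wild-type arrays had it well above background, so the size of this difference is not well measured, and it was 0.55 and not called with normexp background correction. Gadd45a, a growth arrest and DNA damage gene, moved the other way and fell by 1.84 (SE 0.30, adjusted p = 0.0019). In the knockout Ddit4 still rose, by 2.49 (SE 0.49, adjusted p = 0.013), although not past the threshold with normexp (2.36, adjusted p = 0.051). Its levels were 3.49, 2.25, 1.92 and 2.97 without treatment and 5.67, 4.51, 4.79 and 5.64 with dexamethasone, with no overlap, as for 9.65% of all genes. Under dexamethasone it stayed 5.06-fold lower in the knockout than in wild type (log2 -2.34, SE 0.49, adjusted p = 0.0039). Batf2 fell in the knockout by 1.04 (SE 0.23, adjusted p = 0.022), a call lost without treated knockout array 2 (-1.01, adjusted p = 0.057) or 3 (-1.05, adjusted p = 0.058) and with normexp (-0.54, adjusted p = 0.38). Fitting only the groups compared lost this call too (-1.04, adjusted p = 0.094). In wild type Batf2 differed by -0.56 with dexamethasone (SE 0.23, adjusted p = 0.13). The difference of the responses was -0.49 (SE 0.32, adjusted p = 0.53), and neither was called.

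Gadd45a was the only one of the 151 for which the difference of the responses was called (2.51, SE 0.43, adjusted p = 0.0056). Its levels were 0.51, -0.16, 0.01 and -0.97 in untreated wild type, -2.11, -1.50, -2.48 and -1.90 in treated wild type, 0.98, 1.76, 1.97 and 1.96 in untreated knockout and 2.47, 2.51, 2.43 and 1.92 in treated knockout. It was 3.53-fold higher in the knockout without treatment (log2 1.82, SE 0.30, adjusted p = 0.0088) and 20.1-fold higher with dexamethasone (log2 4.33, SE 0.30, adjusted p = 5.1e-06). The untreated call was lost with only the groups compared (1.82, SE 0.34, adjusted p = 0.069). Also higher in treated knockout than in treated wild type was Nupr1, a stress-induced chromatin protein gene (2.14, SE 0.54, adjusted p = 0.011). Fgf21, a liver hormone that ATF4 induces, was at 4.15, -0.03, 2.43 and 1.95 in treated knockout and -0.44, -0.18, -0.46 and 0.26 in treated wild type (2.33, SE 0.74, adjusted p = 0.036). The Fgf21 call was lost without any of the 4 treated wild-type arrays or treated knockout arrays 1, 3 or 4 (1.65 to 2.49, the lowest without knockout array 1 at adjusted p = 0.11). Cebpb, a partner of ATF4 and CHOP, was lower in treated knockout (-1.36, SE 0.21, adjusted p = 0.00047), as was Cdkn1a (-4.92, SE 0.81, adjusted p = 0.00086).

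Of the 18 kept genes of amino acid synthesis and uptake, 3 rose with dexamethasone in wild type (5.18% of all genes). They were Mthfd2, a mitochondrial folate enzyme above background on 3 of the 4 untreated wild-type arrays (2.77, SE 0.74, adjusted p = 0.025), the glutamine transporter Slc1a5 (1.12, SE 0.31, adjusted p = 0.028) and the alanine transaminase Gpt2 (0.94, SE 0.25, adjusted p = 0.025). Each of these calls was lost by leaving out 1 of several wild-type arrays. For Mthfd2 these were untreated arrays 1, 2 and 4 and treated arrays 1, 2 and 3 (adjusted p up to 0.073), and normexp gave a smaller difference that kept its call (1.47, adjusted p = 0.038). For Slc1a5 they were untreated arrays 1 and 3 and treated arrays 1, 2 and 4 (adjusted p up to 0.084), and for Gpt2 untreated arrays 1, 2 and 3 and treated arrays 1 and 4 (adjusted p up to 0.070). None of the 18 was called with dexamethasone in the knockout, where 3 had an unadjusted p under 0.05 in limma (16.7% of all genes). In treated knockout against treated wild type 4 were higher and 3 lower (14.1% and 8.2% of all genes). Slc38a2, an amino acid transporter that ATF4 and glucocorticoids raise, was lower (-1.51, SE 0.26, adjusted p = 0.0013), as was Gpt2 (-1.11, SE 0.25, adjusted p = 0.0062), while the neutral amino acid transporter Slc1a4 was higher (0.97, SE 0.23, adjusted p = 0.0076). Aldh18a1, a proline synthesis enzyme, was not well above background on any wild-type array, treated or untreated, and passed the filter through knockout arrays only. It was called higher in treated knockout (adjusted p = 0.015 in limma). Since the filter kept it only through the genotype where it is higher, this call is not support for a difference. The mean of the treated knockout arrays was 2.9-fold above the lowest signal of any probe that counted as above background on the treated wild-type arrays. That signal is not a limit measured for this probe. Psat1, a serine synthesis enzyme, read 1.05, -3.73, -0.05 and -1.53 in treated knockout and -2.93, -3.36, -3.30 and -3.97 in treated wild type (2.32, SE 0.79, adjusted p = 0.048). Treated knockout array 2 was the lowest of its group for Psat1, Fgf21, Nupr1 and Asns. The Psat1 call was lost in 15 alternative settings, the leaving out of each treated wild-type array and of treated knockout arrays 1, 3 and 4 among them (1.62 to 2.48). Slc38a2 was also lower in untreated knockout than in untreated wild type (-1.26, SE 0.26, adjusted p = 0.022), a call lost without untreated wild-type array 2 (-1.14, adjusted p = 0.078) or 3 (-1.17, adjusted p = 0.060) or untreated knockout array 4 (-1.06, adjusted p = 0.055). It was lost as well with normexp (-1.21, adjusted p = 0.066) and with only the groups compared (-1.26, adjusted p = 0.079).

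With dexamethasone, 0 to 2 genes of each list of ER chaperones, degradation factors and translocation factors were called in either genotype. Of 24 chaperones and folding enzymes, 0 were called with dexamethasone in wild type, where 2 had an unadjusted p under 0.05 in limma (26.4% of all genes). In the knockout 1 rose (1.18% of all genes), the prolyl isomerase Fkbp14 (0.80, SE 0.20, adjusted p = 0.041). Its mean also rose in wild type, from -1.02 to -0.43. Neither that rise nor the difference of the responses was called. The Fkbp14 call in the knockout was lost under normexp (0.72, adjusted p = 0.097). It was also lost without any one of untreated wild-type arrays 1 and 2, treated wild-type arrays 3 and 4, untreated knockout arrays 2 and 4 and treated knockout arrays 2, 3 and 4 (0.70 to 0.81). Dnajc3, a co-chaperone of Hspa5 in the ER, was lower in treated knockout than in treated wild type (-0.70, SE 0.18, adjusted p = 0.011). It was also lower in untreated knockout than in untreated wild type (-0.74, SE 0.18, adjusted p = 0.038). The untreated call was lost in 12 of 29 alternative settings and the treated call in 0. Txndc5, a protein disulfide isomerase, was higher in treated knockout than in treated wild type (0.50, SE 0.12, adjusted p = 0.011). The Txndc5 call was lost with normexp (0.38, adjusted p = 0.067) and with the mean of its probes (0.14, adjusted p = 0.62). Of 20 factors of ER-associated degradation, 1 rose with dexamethasone in wild type (5.18% of all genes). In treated knockout 4 were lower than in treated wild type (8.2% of all genes). Ube2g2, a ubiquitin-conjugating enzyme of this pathway, was the one that rose (1.29, SE 0.23, 2.45-fold, adjusted p = 0.0027) and was among those lower in treated knockout (-1.40, SE 0.23, adjusted p = 0.00075). Its levels were 3.52, 3.27, 3.96 and 4.25 in untreated wild type, 5.40, 4.53, 5.27 and 4.99 in treated wild type, 2.92, 3.20, 3.58 and 3.25 in untreated knockout and 3.86, 3.46, 3.63 and 3.65 in treated knockout. Of 22 genes of ER translocation and early secretory traffic, 2 rose with dexamethasone in wild type (5.18% of all genes). They were the COPII coat subunits Sec31a (0.47, SE 0.10, adjusted p = 0.010) and Sec24d (0.74, SE 0.20, adjusted p = 0.028). Sec24d lost its call without untreated wild-type array 2 (0.59, adjusted p = 0.10) or treated array 1 (0.68, adjusted p = 0.086) or 4 (0.69, adjusted p = 0.068). Of the 11 stress sensors and their processing enzymes, Atf6 was lower in treated knockout than in treated wild type (-0.66, SE 0.20, adjusted p = 0.027), a call lost without treated wild-type array 1 or 4 or treated knockout array 3 or 4 (-0.64 to -0.57). No sensor was called in the other comparisons. With dexamethasone 4 had an unadjusted p under 0.05 in limma in wild type (26.4% of all genes) and 1 in the knockout (16.7%). The difference of the responses had 0 (16.6%) and untreated knockout against wild type had 2 (19.4%). The genes of IRE1 (Ern1, 0.24, SE 0.18, adjusted p = 0.37) and PERK (Eif2ak3, 0.06, SE 0.30, adjusted p = 0.91) were not called in treated knockout against treated wild type. Of the 18 aminoacyl-tRNA synthetases 0 were called with dexamethasone in either genotype by limma, with 7 in wild type (26.4% of all genes) and 6 in the knockout (16.7% of all genes) at an unadjusted p under 0.05, and their median differences were 0.22 and 0.25. Of the 15 kept kinases, subunits and phosphatases of eIF2alpha, 0 were called with dexamethasone in either genotype by limma. At an unadjusted p under 0.05 there were 6 in wild type (26.4% of all genes) and 1 in the knockout (16.7% of all genes). In treated knockout against treated wild type the synthetase Cars (0.69, SE 0.23, adjusted p = 0.041) and the double-stranded RNA-activated kinase Eif2ak2 (0.51, SE 0.15, adjusted p = 0.030) were higher, and the eIF2 subunit Eif2s3x was lower (-0.34, SE 0.09, adjusted p = 0.012). The Cars call was lost without any one of the 4 treated wild-type arrays, treated knockout arrays 1, 2 and 3, untreated wild-type arrays 1 and 2 or untreated knockout array 2 (0.51 to 0.75). The Eif2ak2 call was lost without treated wild-type array 1, 2 or 3 or treated knockout array 1 or 2 (0.41 to 0.51).

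**Figure D4:**
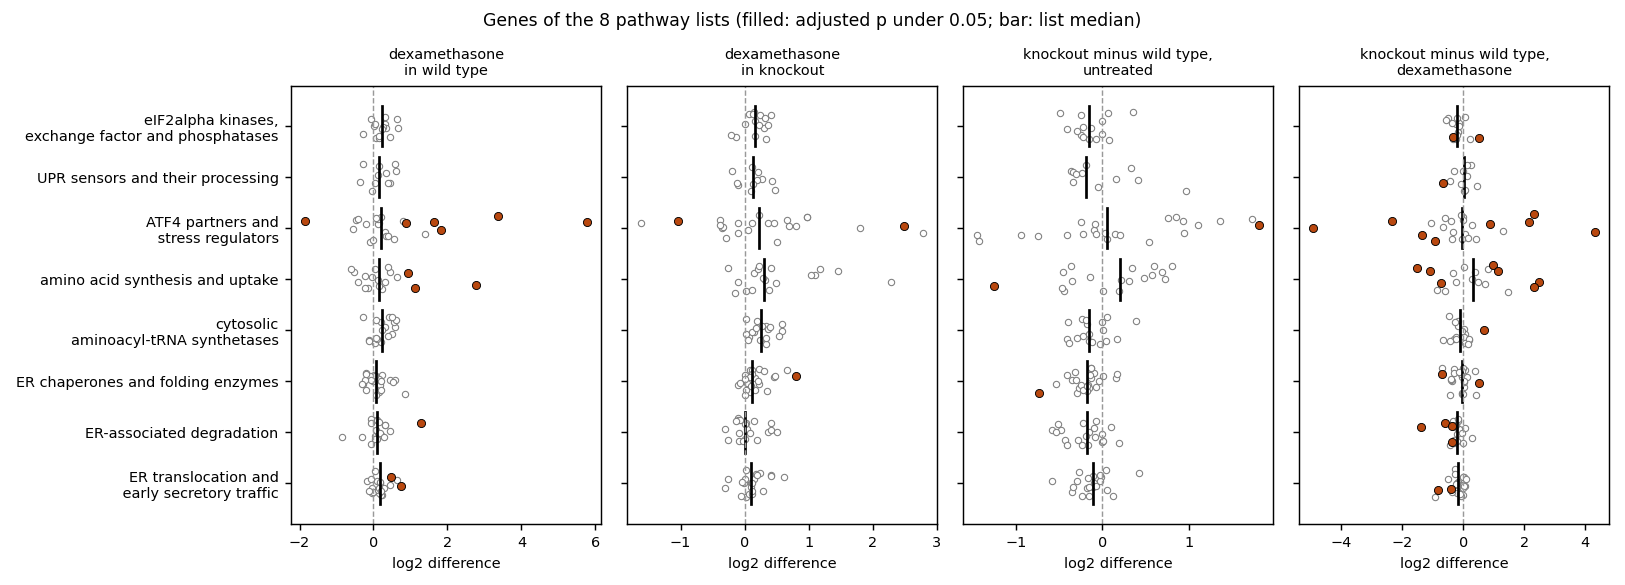
Log2 differences (x axis) of the genes of the 8 pathway lists (y axis) with dexamethasone in wild type and in knockout and for knockout minus wild type without and with dexamethasone; each point is 1 gene, filled where the adjusted p is under 0.05, and the bar is the median of the list. Filled points are most numerous for treated knockout minus treated wild type, where 11 genes are higher and 16 lower.

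Markers of cell types moved between the same groups. Of all genes, 5.18% were called higher and 6.81% lower with dexamethasone in wild type, and 1.18% and 2.4% in the knockout. In treated knockout against treated wild type these shares were 14.1% and 8.2%. Of the 8 hepatocyte markers, 2 rose with dexamethasone in wild type, Tat (1.06, SE 0.24) and Hnf4a (0.59, SE 0.17). The others were not called there, with Cps1 (0.62), Fga (0.51) and Apoa1 (0.25) higher and Alb (-0.13), Ttr (-0.14) and Apob (-0.18) lower. In treated knockout 4 were lower than in treated wild type, Tat (-1.46), Cps1 (-1.28), Hnf4a (-1.14) and Apoa1 (-0.80). There Alb (-0.06), Ttr (0.12), Apob (-0.19) and Fga (-0.73) were not called. Tat and Hnf4a are also the 2 that rose with dexamethasone in wild type. The summed hepatocyte level was 11.19 to 11.43 in treated wild type and 10.70 to 10.96 in treated knockout. Of 4 B cell markers kept, 2 fell with dexamethasone in each genotype. Of 6 sinusoidal endothelial markers, Lyve1 rose with dexamethasone in wild type (2.41, SE 0.33) while Kdr (-1.13, SE 0.24) and Fcgr2b (-0.80, SE 0.21) fell, and in the knockout Lyve1 rose (2.58, SE 0.33) and Kdr fell (-1.03, SE 0.24). In wild type 1 of the 3 kept neutrophil markers fell, S100a9 (-2.01, SE 0.62), while S100a8 (-1.73, SE 0.62) and Mpo (0.66, SE 0.29) were not called. Of 6 T and NK cell markers Cd3g fell there (-0.77, SE 0.20). Cd3e was at 0.18 (SE 0.12), and the others were lower, all without a call. In the knockout Cd3e fell (-0.92, SE 0.12), and its difference of the responses was called (-1.11, SE 0.18). Of 5 cholangiocyte markers Sox9 rose in wild type (1.36, SE 0.36). Krt7 (0.51, SE 0.25), Krt19 (0.28, SE 0.29), Epcam (-0.02, SE 0.54) and Spp1 (-0.08, SE 0.46) were not called there. The summed plasma cell level, from 3 of 5 markers with Tnfrsf17 not well above background on any array, was 2.97 to 4.04 in untreated and 4.20 to 4.79 in treated knockout. Sdc1, which hepatocytes also make, was the one called (0.85, SE 0.22), while the other kept markers were at -0.63 (Jchain, SE 0.43) and -0.35 (Mzb1, SE 0.22) in that comparison and were not called. The part of cell type shares in the differences of Herpud1 and Ddit3 was not tested.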

How the data were processed

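Gene expression was measured on 16 single-colour arrays in 4 groups. Per the submitters' processing notes the scanner output was extracted with Agilent Feature Extraction 9.5. The deposited values used here are the processed signal of each spot, an intensity that was background-subtracted and detrended within its array per the file headers. The raw mean and local background intensity served 1 alternative, and spot flags (unit other, per the file headers) marked spots above background, saturated or outlying. The deposited series table holds the same intensity (largest difference 0). Between arrays the authors' values were not normalized.

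Control spots and 2121 outlying spots (0.306%) were dropped. Log2 values were centred on each array's 75th percentile and averaged over the spots of a probe. A probe was kept if it was well above background on 3 or more arrays of some group (26792 probes), and a gene was represented by its brightest probe on average. Symbols came through RefSeq accessions (22951 probes) or symbols and synonyms (9768), while 8455 probes stayed unnamed. Probe positions are those of the deposited mm7 annotation, which was not paired with exons or UTRs here. Promoters are RefSeq, GRCm38.p6.

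Group means were fitted over all 16 arrays (12 residual degrees of freedom) with limma 3.58.1 (R 4.3.3), with 5 two-sided contrasts; p-values were adjusted over all genes by the method of Benjamini and Hochberg and called under 0.05. The 10 genes, the 8 pathway lists and the marker lists were chosen with earlier results of these data known. All 10 genes were named, and from each list and comparison up to 3 called genes in each direction, the largest changes first, if a compared group had them above background on all its arrays. Values are printed for most of these, and Aldh18a1, Ern1 and Eif2ak3 were added after their values were seen. Residuals of same-numbered arrays in different groups correlated at -0.186 to 0.347, over 0.1 in 10 of 24 pairs. Arrays of different number were not correlated beside them, so this check cannot decide whether the numbers pair samples. The labels state no pairing, and the main fit used none. No array duplicated another. The alternatives tried were: normexp (offset 50) for the background; quantile scaling or a percentile over bright probes; no or a stricter filter; keeping outlying spots; averaging a gene's probes; limma with trend and robust settings, with array weights, or with a replicate block; the series table; fitting the compared groups alone; and leaving out each array. Figures were drawn with matplotlib 3.10.9 (Python 3.11.15).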

Additional observations from a re-analysis of the deposited data

Results flagged for a closer look

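In 160 groups of 4 arrays examined over the 12 probes of the 10 genes and the pathway genes named, 7 held an array whose gap to the nearest other was too large a share of the group's range by Dixon's criterion, where chance alone gives about 1 in 20. For the 10 genes these were Asns on treated knockout array 2 (0.03, against 4.44 to 5.05 on the others), Asns on untreated wild-type array 4 (1.62, against 2.43 to 2.57) and Atf3 on treated knockout array 4 (-1.92, against -1.60 to -1.56). Among pathway genes they were Gadd45a on treated knockout array 4 (1.92, against 2.43 to 2.51), Gpt2 on untreated knockout array 4 (5.97, against 4.95 to 5.11), Slc1a5 on untreated knockout array 1 (-0.15, against -1.63 to -1.44) and Txndc5 on untreated knockout array 4 (2.94, against 3.00 to 3.01). The criterion was applied to values rounded to 2 decimals. The Txndc5 group spans so little that rounding alone may have set its flag.

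The response of Gadd45a to dexamethasone differed between the genotypes by 2.51 on the log2 scale (SE 0.43, adjusted p = 0.0056 for the difference itself), a fall in wild type and no called change in the knockout. Leaving out each array in turn gave 2.28 to 2.78.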

How the results depend on the processing

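Of 50 differences of the 10 genes, none reversed in 29 alternative settings (1440 values; a reversal was counted only where the value was called or had an unadjusted p under 0.05, and 57 values of uncalled differences changed sign). The called genes among the 10 numbered 1 with dexamethasone in wild type, 0 with normexp and 2 with array weights, and 0 for the difference of the responses, 1 with array weights. Of all genes, 12% were called with dexamethasone in wild type, 6.45% with normexp and 27% with array weights. For the difference of the responses the share was 4.61%, and 14.7% with array weights. Leaving out single arrays gave 0 to 1 with dexamethasone in wild type, in knockout, for the difference of the responses and for untreated knockout against wild type, and 1 to 2 for treated knockout against wild type.

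The called pathway genes numbered 12 with dexamethasone in wild type (43 with array weights, 25 without the 2 arrays of lowest signal, a setting chosen after seeing the data), 3 in the knockout (0 with normexp, 5 with quantile normalization, 7 with array weights, 1 with only the groups compared), 1 for the difference of the responses (2 with quantile normalization, 2 with a trended robust variance, 9 with array weights, 4 without the 2 arrays of lowest signal), 3 for untreated knockout against wild type (1 with normexp, 9 with array weights, 0 with only the groups compared) and 27 for treated knockout against wild type (45 with array weights). With the replicate number as a block, a pairing on which the arrays' correlations cannot decide, 3 pathway genes were called for the difference of the responses and 7 for untreated knockout, and no call on the 10 genes changed. Leaving out single arrays gave 6 to 25, 1 to 5, 1 to 3, 1 to 6 and 18 to 37 in the order above. With dexamethasone in wild type the lowest count, 6, came with array 1 of treated wild type left out, and the highest, 25, with array 1 of untreated knockout left out (7 with array 1 of untreated wild type left out). In the knockout it was 5 without treated knockout array 1 and 1 without array 3. For untreated knockout against wild type it was 6 without untreated knockout array 3 and 1 without array 4. For the difference of the responses it was 3 without untreated wild-type array 4 and 2 without treated wild-type array 2, untreated knockout array 1 or treated knockout array 1 or 4. The share of all genes called shifted too. With dexamethasone in wild type it was 12% in the main fit, 27% with array weights and 18.3% without the 2 arrays of lowest signal. It was 17.8% without untreated knockout array 1 and 6.64% without treated wild-type array 1. For untreated knockout against wild type it was 2.82%, 8.41% with array weights and 0.486% with only the groups compared. For treated knockout it was 22.3% and 36.1% with array weights. The cause of these shifts was not tested. Of 40 results named for pathway genes, 17 lost their call without some single array and 0 reversed. No scaling moved the median of all genes by over 0.1.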
